A study of Mus musculus with 6 samples.

Results

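The nuclear genome encodes most subunits of the 4 respiratory complexes and of ATP synthase, and 83 genes of this kind were followed in mouse heart muscle. They were the rows of the deposited gene tables whose symbols begin with Ndufa, Ndufb, Ndufc, Ndufs or Ndufv and a digit, with Uqcr, with Atp5, or with Cox and a digit from 4 to 8, together with Sdha to Sdhd. The naming rule took 83 of the 17891 genes listed in any sample: 37 of complex I, 4 of complex II, 8 of complex III, 17 of complex IV and 17 of complex V. No pseudogene or predicted gene matched it, and each of the 83 was listed in all 6 samples. RNA sequencing had been done on total RNA from the myocardium of C57BL/6 mice at 6 weeks of age. The WT group had 3 wild-type samples. The NS-DADm group had 3 samples from mice with knock-in mutations, present in every tissue, in the deacetylase-activating domain (DAD) of each of the corepressors NCOR and SMRT. NCOR and SMRT recruit histone deacetylase 3 to nuclear receptors, and the DAD is the part that activates that enzyme. Because the mutations are not limited to the heart, effects through other tissues cannot be told apart from effects within heart muscle. The labels do not say that the samples of a group came from separate mice, so p-values measure only the spread between these samples.

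The respiratory chain passes electrons from NADH through complex I, or from succinate through complex II, to ubiquinone, then through complex III and cytochrome c to complex IV, which reduces oxygen. Complexes I, III and IV pump protons out of the mitochondrial matrix, and ATP synthase, counted as complex V, uses their return to make ATP. Heart muscle is dense in mitochondria and uses this route for most of its ATP. Some subunits of complex IV exist in a form typical of heart and skeletal muscle and a form found in liver and most other tissues.

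The gene tables gave each gene an expected count, which is the number of reads an estimator assigned to it, and an FPKM, which is that count scaled by length and library size and so allows levels of different genes to be compared. Depth ran from 10183776 to 11205194 expected counts a sample in WT and was higher in NS-DADm, from 12262491 to 12758270. The 83 genes together held 5.02% to 5.57% of a sample's counts and 11.91% to 12.89% of its summed FPKM. The tables listed 0 mitochondrially encoded genes, so the subunits made inside mitochondria were not analysed here. Cardiomyocyte markers were abundant in every sample, with a summed FPKM of 7 genes from 49700 to 57500. Ncor1, which encodes NCOR, averaged 22.9 FPKM in WT against 24.3 in the mutants, with overlapping groups. A mutated domain need not change a transcript's level, so these values do not check the labels.

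Libraries differed in markers of atrial muscle in a way that crossed the groups. The summed FPKM of 6 atrial genes, among them Nppa, Sln and Myl7, was 555, 290 and 4740 in WT samples 1 to 3 and 3810, 593 and 6640 in NS-DADm samples 1 to 3. WT 3, NS-DADm 1 and NS-DADm 3 were thus high in atrial transcripts, and the other 3 were low. The sum of white adipocyte markers moved with them, at 7.54, 3.38 and 68.5 in WT and 41.7, 6.46 and 210.0 in NS-DADm. Most of the high sums came from Cfd, with 51.5 FPKM in WT 3, 30.6 in NS-DADm 1 and 156 in NS-DADm 3. Adipoq, Retn and Plin1 were also higher in these libraries. Lep was not, with its highest value, 0.82, in WT 1. Ucp1, the uncoupling protein of brown fat, was not listed in WT 1, WT 2 and NS-DADm 2. It was at 0.68 FPKM in WT 3, 1.69 in NS-DADm 1 and 23.6 in NS-DADm 3. The sum of 5 brown adipocyte markers, Ucp1 among them, was 39.6, 35.8 and 39.2 in WT and 50.7, 40.9 and 99.8 in NS-DADm. Of that list Adipoq followed the atrial split, Cidea and Pparg did not, and Elovl3 was at most 0.85 FPKM. Macrophage markers were higher in NS-DADm, where 7 genes summed to 358 to 417 FPKM against 277 to 311 in WT. Of the 7, 4 passed the edgeR test at an adjusted p of 0.05, where 3.2% of all tested genes passed. Haemoglobin and Alas2 transcripts of red blood cells summed to 6710 to 7970 FPKM in WT and 3390 to 6680 in NS-DADm, and 0 of these 5 genes passed. The part of these other cells in the results below was not tested. Differences within the 3 atrial-low or the 3 atrial-high libraries are given beside some results as values only, since each sets 1 library against a pair. In bulk tissue, fewer cells of a type and less RNA per cell cannot be told apart.

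In WT myocardium 76 of the 83 genes were above the 95th percentile of the genes tested, and 77 averaged over 100 FPKM. The median level was higher with each complex in the usual numbering, from 453 FPKM in complex I to 585.6 in complex II, 822.7 in complex III, 1287 in complex IV and 1348 in complex V. The median over all tested genes was 7.18 FPKM. Summed over members, complex V reached 21394 ± 1087 FPKM (SD, n = 3), complex I 20041 ± 1263, complex IV 18395 ± 1136, complex III 7181 ± 434 and complex II 2400 ± 90. Ndufa4 is counted in complex I here by its symbol although it is now assigned to complex IV. Counted there, it would put complex IV at 20851 ± 1422 and complex I at 17585 ± 1011, so the order of these sums depends on it. The order of the medians depends on it too. Complex IV would then have a median midway between Cox5a at 1287 FPKM and Cox7c at 1441, above that of complex V.

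**Figure D1:**
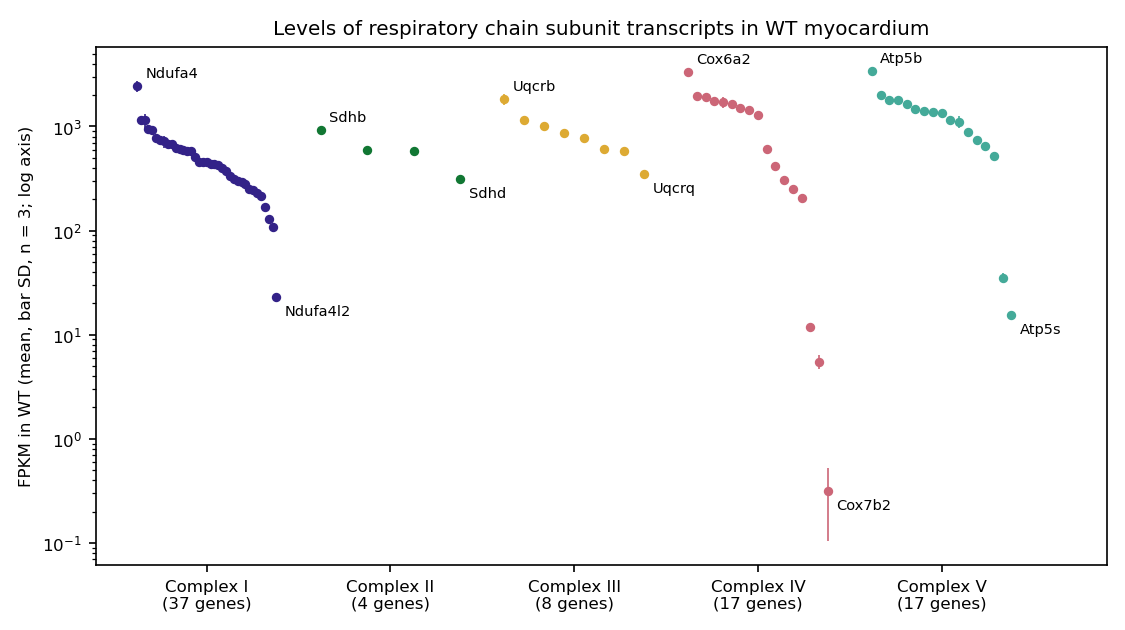
WT level of each of the 83 genes by complex, as mean FPKM on a log axis with the SD of 3 samples as bars. Most genes lie within 100 to 3413 FPKM, and the few low points are the isoforms and related genes Ndufa4l2, Cox4i2, Cox6b2, Cox7b2, Atp5sl and Atp5s.

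Complex I takes electrons from NADH, and its catalytic core includes 7 subunits encoded in the nucleus. The lowest of these 7 genes was Ndufs8, which carries iron-sulfur clusters near the ubiquinone site, at 244 FPKM. Their median of 455 FPKM was close to the 445.5 of the 28 accessory genes, which ranged from 108 for Ndufa11 to 1154 for Ndufb9. Ndufa4, first purified with complex I and now assigned to complex IV, was the highest of the Nduf genes at 2456 ± 300 FPKM (SD, n = 3). Its paralog Ndufa4l2, known as a gene induced by low oxygen, stood at 22.8 ± 2.3.

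The 4 genes of complex II, succinate dehydrogenase, lay within a range of 2.94-fold in WT. Sdhb, the iron-sulfur subunit, averaged 916.5 ± 40 FPKM (SD, n = 3) and Sdhd, a membrane anchor, 312 ± 22. Sdhc, the other anchor, and Sdha, the flavoprotein that oxidises succinate, were between them at 592 ± 40 and 579 ± 23 and did not differ beyond their spread. In complex III, Uqcrb, a subunit near the ubiquinone site, was highest at 1821 ± 220 FPKM, followed by Uqcr11 at 1151 ± 85. Uqcrfs1, the Rieske iron-sulfur protein, stood at 583 ± 32, and Uqcrq was lowest at 349 ± 33.

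In ATP synthase the catalytic head led. Atp5b, the beta subunit, was the highest of all 83 genes at 3413 ± 34 FPKM (SD, n = 3), and Atp5a1, the alpha subunit, followed at 2004 ± 11. The c subunit, whose ring turns in the membrane, is made from 3 genes that encode the same mature protein behind different import signals. Atp5g1 stood at 1808 FPKM, Atp5g3 at 1393 and Atp5g2 at 520.1, for a sum of 3721.5, above that of Atp5b. Atp5s, coupling factor B, was at 15.3 ± 0.96, and Atp5sl, a similarly named gene since tied to complex I assembly, at 35.4 ± 3.6. Both match the naming rule without being structural subunits of the enzyme.

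The 3 pairs of muscle and liver forms in complex IV were all led by the muscle form. Cox6a2, the heart and muscle form of subunit VIa, measured 3399, 3383 and 3208 FPKM in WT samples 1 to 3, and Cox6a1, its liver form, 220.4, 201.5 and 194. The muscle form made 94.2% of the pair in WT. Cox7a1, the muscle form of subunit VIIa, made 82.3% of its pair with Cox7a2, and Cox8b, the muscle form of subunit VIII, 84.8% of its pair with Cox8a. The fast skeletal myosins Myh1, Myh2 and Myh4 were at 0.1 FPKM or less in every sample, so muscle forms were high where these myosins were near 0. Of the other skeletal muscle markers listed, Tnni2, Tnnt3 and Mylpf were at 2.82 FPKM or less in every sample. Ckm averaged 1661 FPKM in WT. Acta1 averaged 162 in WT and 462 in NS-DADm, with an adjusted p of 0.0252 in edgeR.

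The Cox7a1 to Cox7a2 pair is shown first at the level of sequence, since its ratio differed most between the groups among these 3 pairs. The coding sequences below were read from GENCODE M21 on GRCm38, and each is the form that matches the most abundant deposited transcript. Capitals mark bases that differ from, or have no partner in, the other gene when the 2 are aligned. Cox7a1 lies on chromosome 7 and Cox7a2 on chromosome 9.
Cox7a1: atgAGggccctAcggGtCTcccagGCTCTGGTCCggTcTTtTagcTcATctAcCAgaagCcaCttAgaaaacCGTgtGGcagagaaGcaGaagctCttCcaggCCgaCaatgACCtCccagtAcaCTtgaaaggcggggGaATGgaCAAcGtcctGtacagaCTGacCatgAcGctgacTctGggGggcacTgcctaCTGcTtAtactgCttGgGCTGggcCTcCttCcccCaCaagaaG
Cox7a2: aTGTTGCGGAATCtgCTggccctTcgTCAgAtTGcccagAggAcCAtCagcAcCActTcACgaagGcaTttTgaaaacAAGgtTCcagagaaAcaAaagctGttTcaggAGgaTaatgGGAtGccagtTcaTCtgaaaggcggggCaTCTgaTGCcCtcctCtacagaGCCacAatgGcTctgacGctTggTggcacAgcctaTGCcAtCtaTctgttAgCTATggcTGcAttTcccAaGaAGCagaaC
The genes encode 80 and 83 residues before the stop codon. Over 230 aligned bases they were 67.4% identical, and the longest run without a difference was 12 bases. Cox6a2 and Cox6a1 were 66.6% identical and Cox8b and Cox8a 68.1%, with longest runs of 12 and 10 bases. Only coding sequences were compared, and whether reads of the 2 forms were told apart was not tested.

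The promoters of Cox7a1 and Cox8b differ from those of their liver forms in CG content, and the 250 bases before the start of these 4 genes are printed for that reason. They come from RefSeq on GRCm38.p6, 5′ to 3′ on the gene's strand. Capitals mark a match to CTANNNNTA, searched on both strands. This is a loose form of the site of MEF2, a muscle transcription factor, with any base allowed at N.
Cox7a1 (chr7:30183921-30184170, + strand): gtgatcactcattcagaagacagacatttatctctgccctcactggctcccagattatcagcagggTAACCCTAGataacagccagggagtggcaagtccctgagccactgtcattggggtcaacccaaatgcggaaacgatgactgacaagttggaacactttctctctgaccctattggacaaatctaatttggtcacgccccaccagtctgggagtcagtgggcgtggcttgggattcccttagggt
Cox7a2 (chr9:79759854-79760103, - strand): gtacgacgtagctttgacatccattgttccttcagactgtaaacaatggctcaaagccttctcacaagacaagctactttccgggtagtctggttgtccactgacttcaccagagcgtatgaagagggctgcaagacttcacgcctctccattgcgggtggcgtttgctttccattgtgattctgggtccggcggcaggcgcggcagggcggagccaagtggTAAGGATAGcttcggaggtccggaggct
Cox8b (chr7:140900447-140900696, - strand): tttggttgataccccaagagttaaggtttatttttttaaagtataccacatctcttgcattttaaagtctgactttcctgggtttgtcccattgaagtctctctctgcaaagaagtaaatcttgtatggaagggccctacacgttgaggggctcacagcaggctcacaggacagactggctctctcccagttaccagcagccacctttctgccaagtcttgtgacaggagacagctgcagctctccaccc
Cox8a (chr19:7217617-7217866, - strand): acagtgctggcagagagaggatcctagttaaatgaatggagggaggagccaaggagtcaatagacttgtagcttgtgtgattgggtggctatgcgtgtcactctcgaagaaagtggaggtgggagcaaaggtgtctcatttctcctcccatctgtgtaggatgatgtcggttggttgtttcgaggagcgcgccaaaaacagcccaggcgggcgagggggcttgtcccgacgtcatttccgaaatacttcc
Cox8b and Cox8a held no match to this pattern. The muscle forms held 4 CG dinucleotides in Cox7a1 and 1 in Cox8b, and the liver forms 14 in Cox7a2 and 11 in Cox8a. In windows of 300 bases around the start, 69 of the 83 genes matched with 75 windows. In the 250 bases before the start, the median of these windows was 14 CG dinucleotides against 6 over all 32851 windows. Among the unmatched were Atp5a1, Cox4i1, Cox4i2, Cox6a2, Cox6c, Ndufa2, Ndufa4l2, Ndufb9, Ndufs1, Sdhc, Uqcrb, Uqcrc2 and Uqcrq. The match to the loose MEF2 pattern lay 184 bases before the start in Cox7a1 and 28 bases before it in Cox7a2. Both matches hold C or G at positions N, where the usual MEF2 site has A or T, so neither is labelled a MEF2 site. The loose pattern was found in 14.7% of the members' windows and in 21% of all windows. Such a match describes letters only and is not a measured binding site.

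Searches of the same windows for other motifs found several more often in the members than in all promoters. The motif of NRF1, a known activator of respiratory genes, TGCGCATG, was in 10.7% of the members' windows and 2.12% of all. That of YY1, AAGATGGCG, was in 12% and 1.4%. That of the estrogen-related receptors, CAAGGTCA, was in 5.33% and 1.56%, and that of GABP, CCGGAAGT, in 6.67% and 3.89%. The TATAAA box was in 10.7% of the members' windows and 13.6% of all. Both strands were searched in each case, and overlapping matches of different motifs were not removed. The background windows were not matched for CG content. Before the start, the members' windows held a median of 14 CG dinucleotides, against 6 over all windows. The motifs of NRF1, YY1 and GABP contain a CG, and that of the estrogen-related receptors does not. The part of CG content in these shares was not tested. The median log2 fold change between the groups was -0.03 in genes with an NRF1 match and -0.03 in genes without. With and without a match it was -0.11 and -0.03 for GABP, with 5 genes matched, and -0.01 and -0.03 for the estrogen-related receptors. For YY1 it was -0.02 and -0.04, for the loose MEF2 pattern -0.04 and -0.03, and for TATAAA -0.01 and -0.04.

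In the comparison of NS-DADm with WT, no subunit gene of any complex passed the test. With edgeR's quasi-likelihood test and Benjamini-Hochberg adjustment over all tested genes, 0 of the 82 members tested were called at an adjusted p of 0.05, where 3.2% of all 13130 tested genes were called. Cox7b2, known from testis, had at most 3 counts in a sample and was not tested. At an unadjusted p of 0.05 there were 9 members, or 11%, where the background was 18.1%, so the members' share was below that of all genes. Of the 9, 7 were lower in NS-DADm (Atp5s, Cox6b2, Cox7a2l, Ndufa4, Sdha, Uqcr11 and Uqcrb) and 2 were higher (Cox7a1 and Ndufa7). The limma test on log2 FPKM called 0 members. DESeq2's Wald test called 1, Sdha, where it called 4.24% of all genes.

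The median log2 fold change of the 82 members was -0.03, and 57 of them were negative and 25 positive. Over all tested genes the median was 0.00 and 50.7% were negative. By complex the medians were -0.02 for I, -0.10 for II, -0.06 for III, -0.02 for IV and -0.04 for V. The estimates were narrow, since the median standard error of a member was 0.07 against 0.11 for all genes. In 81 of 82 members the 95% interval lay within a 1.5-fold change in either direction, where this held for 69.6% of all tested genes. The exception was Cox6b2, the testis form of subunit VIb.

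**Figure D2:**
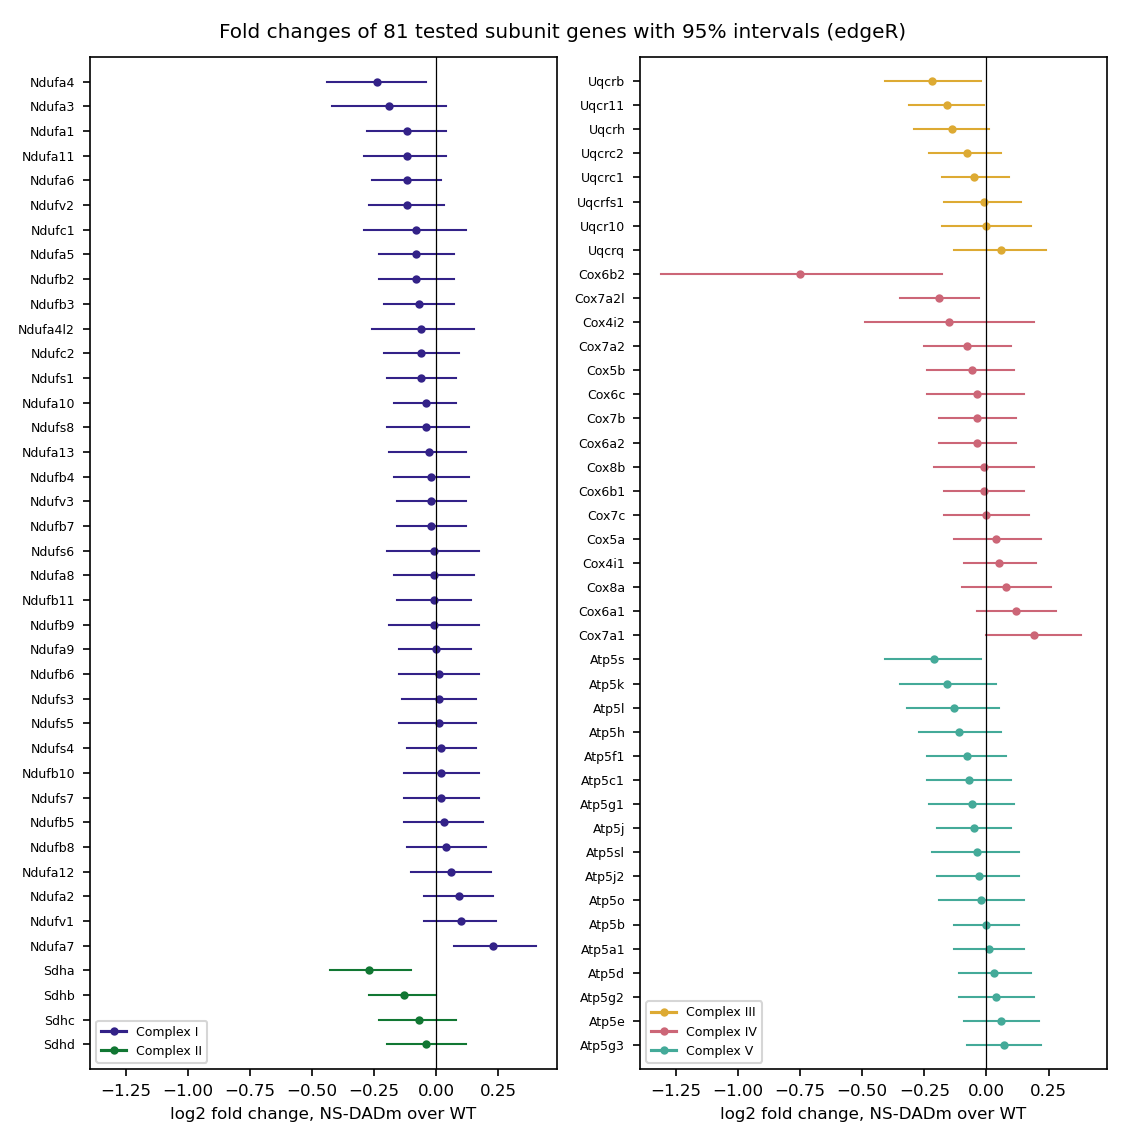
Log2 fold change, NS-DADm over WT, of 81 of the 82 tested genes with 95% intervals from edgeR, sorted within each complex. Most points lie near 0, Cox6b2 at -0.75 and Ndufa7 at 0.23 are the extremes, and all 4 genes of complex II lie below 0.

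In FPKM, 14 members had groups that did not overlap, or 17.1%, where 23.4% of all tested genes did so. In each of the 14 the NS-DADm samples were the lower group, where the background of that direction was 14.5%. In 0 members was NS-DADm the higher group, where 8.94% of all genes were. The deposited FPKM scale itself ran lower in NS-DADm, with a median log2 ratio of -0.03 over all tested genes and -0.07 over the members. On the log2 CPM scale, which is scaled by TMM, 10 members did not overlap, or 12.2%, where 23.2% of all tested genes did so. Of these, 9 were lower in NS-DADm, where the background was 11.9%, and 1 was higher, where it was 11.3%. The one-sided 14 to 0 count thus held for FPKM and became 9 to 1 on log2 CPM. Uqcrb, Uqcrh, Ndufa6, Ndufs1 and Ndufv2 overlapped on log2 CPM, and Ndufa7 was the member higher without overlap.

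The groups were most apart in complex II. Sdha measured 553, 595 and 589 FPKM in WT and 489.6, 495 and 436 in NS-DADm. All 3 NS-DADm samples were below all 3 WT samples, and the log2 fold change was -0.27 with a standard error of 0.07. The adjusted p in edgeR's quasi-likelihood test was 0.0885, the lowest of any member, and it was 0.0143 in DESeq2's Wald test. Within the atrial-low libraries the log2 difference of Sdha was -0.17 and within the atrial-high libraries -0.33. The median of the 4 genes was -0.10 in the former and -0.03 in the latter, where 2 of the 4 were negative, and -0.05 with an atrial score as a covariate.

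Sdhb did not overlap either, with 951, 925 and 873 FPKM in WT and 806, 826 and 831 in NS-DADm. Its log2 fold change was -0.13 with a standard error of 0.06, and its adjusted p in edgeR was 0.291. The anchors overlapped: Sdhc was at 612, 618 and 546 against 550.4, 569.5 and 537, and Sdhd at 332, 317 and 287 against 279.6, 305 and 308. Summed over the 4 genes, complex II was 2447, 2455 and 2296 FPKM in WT and 2126, 2195 and 2113 in NS-DADm, which is 10.6% lower without overlap. On counts scaled by TMM and per kilobase the sum was 9.1% lower, still without overlap.

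**Figure D3:**
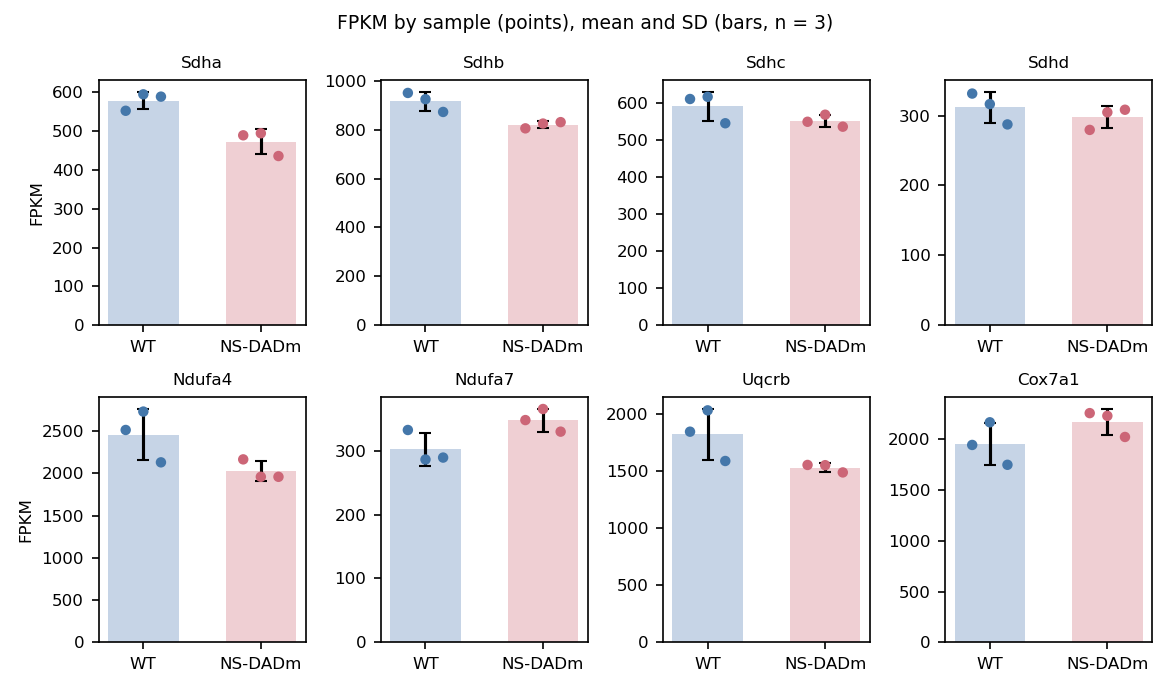
FPKM of 8 genes in each sample (points) with the group mean and SD (bars, n = 3). The 3 NS-DADm points are below all WT points for Sdha, Sdhb and Uqcrb, and the groups overlap for Sdhc, Sdhd, Ndufa4, Ndufa7 and Cox7a1.

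In complex III the sum was 7513, 7341 and 6691 FPKM in WT and 6572, 6605 and 6366 in NS-DADm, or 9.3% lower without overlap, but on TMM-scaled counts the groups overlapped at 7.1% lower. Uqcrb measured 1845, 2031 and 1588 FPKM against 1553, 1551 and 1488, with a log2 fold change of -0.22, a standard error of 0.09 and an adjusted p of 0.223 in edgeR. All NS-DADm values were below WT in FPKM, but on log2 CPM WT 3 fell inside the NS-DADm range. Uqcr11, a small accessory subunit, was at 1248, 1116 and 1089 against 1029, 983 and 999.8, also without overlap. The Rieske gene Uqcrfs1 and the core genes Uqcrc1 and Uqcrc2 overlapped, with log2 fold changes of -0.01, -0.05 and -0.08.

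The Nduf genes held the highest positive member and one of the most negative. Ndufa7, an accessory subunit of the matrix arm, measured 332, 286 and 289 FPKM in WT and 348, 365 and 329.7 in NS-DADm. In FPKM WT 1 lay above NS-DADm 3, while on log2 CPM all 3 NS-DADm samples were above WT. The log2 fold change was 0.23 with a standard error of 0.07 and an adjusted p of 0.13 in edgeR. Ndufa4 measured 2511, 2729 and 2128 FPKM against 2164, 1958 and 1957, with a log2 fold change of -0.24, a standard error of 0.09 and an adjusted p of 0.195. WT 3 fell inside the range of NS-DADm, and within the atrial-high libraries the log2 difference of Ndufa4 was -0.03. Of the other genes of complex I, Ndufa1, Ndufa10 and Ndufa11 were lower in NS-DADm without overlap on both scales, with log2 fold changes from -0.12 to -0.04. Ndufa6, Ndufs1 and Ndufv2 were so in FPKM only. The sum of the 37 genes was 5.5% lower in FPKM with overlapping groups, and 3.8% lower when Ndufa4 was counted in complex IV.

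In complex IV and complex V the sums overlapped. Complex IV was 1.6% lower in NS-DADm by FPKM and 0.6% higher on TMM-scaled counts, so its direction depended on the scale. With Ndufa4 counted in complex IV, the sum was 3.5% lower by FPKM and 1.2% lower on TMM-scaled counts, with overlapping groups on each scale. Complex V was 4.4% and 2.2% lower. Atp5b measured 3428, 3436 and 3374 FPKM in WT and 3405, 3373 and 3286 in NS-DADm, and its log2 fold change was 0.00 with a standard error of 0.06. Cox7a2l, a relative of Cox7a1 and Cox7a2, measured 266, 254 and 229 against 209, 210.4 and 225, without overlap. Its log2 fold change was -0.19 with a standard error of 0.07 and an adjusted p of 0.188 in edgeR. Cox6b2 was scarce, with 87 counts in WT and 59 in NS-DADm when the samples of a group were summed. It measured 5.78, 4.59 and 6.15 FPKM against 3.62, 3.86 and 2.77, with a log2 fold change of -0.75, a standard error of 0.25 and an adjusted p of 0.152 in edgeR.

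The isoform ratios were compared within each sample, which removes library scaling, by a two-sided exact permutation test over samples. With 3 samples against 3 the smallest p such a test can give is 0.1, so no pair could pass 0.05, and p-values were adjusted over 9 pairs. Of the 3 muscle and liver pairs, Cox7a1 to Cox7a2 was the one without overlap. Its ratio was 4.3, 4.99 and 4.66 in WT and 5.81, 5.51 and 5.36 in NS-DADm, so each NS-DADm sample was above each WT sample. The difference of the mean log2 ratio was 0.26, with an exact permutation p of 0.1 and 0.18 after adjustment, and it was 0.25 within the atrial-low and 0.26 within the atrial-high libraries.

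The members of that pair did not pass on their own. Cox7a1 measured 1946, 2170 and 1751 FPKM in WT and 2259.9, 2233 and 2025 in NS-DADm, with a log2 fold change of 0.19, a standard error of 0.09 and an adjusted p of 0.274 in edgeR. Cox7a2 measured 452, 435 and 376 against 389, 405 and 378, with a log2 fold change of -0.08 and a standard error of 0.08. Each gene's groups overlapped, and the ratio separated them. Within the family with Cox7a2l, Cox7a1 held 74.4% ± 1.4 in WT (SD, n = 3) and 78.2% ± 1.0 in NS-DADm.

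The other muscle and liver pairs overlapped. Cox6a2 to Cox6a1 was 15.4, 16.8 and 16.5 in WT and 14.5, 16 and 13.4 in NS-DADm, with an exact permutation p of 0.2 and 0.26 after adjustment. Cox8b to Cox8a was 5.42, 5.96 and 5.34 against 5.46, 4.95 and 5.3, with an exact permutation p of 0.3. Cox6a1 measured 233, 201.5 and 219 FPKM in NS-DADm, where its log2 fold change was 0.12 with a standard error of 0.07, and Cox6a2 had -0.04 with the same error. Cox8b measured 1820, 1824 and 1491 FPKM in WT and 1817, 1591 and 1561 in NS-DADm. Its log2 fold change was -0.01, and that of Cox8a was 0.08. The muscle share was 93.6% for Cox6a2 and 83.9% for Cox8b in NS-DADm, close to the WT shares of 94.2% and 84.8%.

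**Figure D4:**
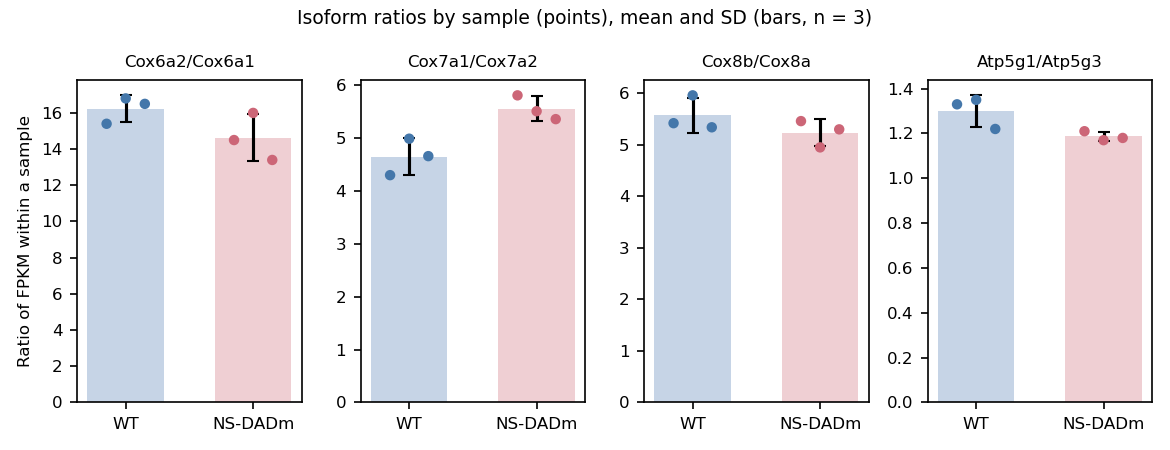
Ratio of the FPKM of 2 isoform genes within each sample (points), with the group mean and SD (bars, n = 3). The 3 NS-DADm points are above all WT points for Cox7a1/Cox7a2 and below them for Atp5g1/Atp5g3, and they overlap for the other two pairs plotted.

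Among 6 further ratios, 4 had groups that did not overlap, each with an exact permutation p of 0.1 and 0.18 after adjustment. With 3 samples against 3, groups that do not overlap always give this p of 0.1. Of all tested genes, taken singly, 23.4% did not overlap in FPKM, and no such share was made for ratios. The c subunit ratios share their genes, so they are not separate observations. Atp5g1 to Atp5g3 was 1.33, 1.35 and 1.22 in WT and 1.21, 1.17 and 1.18 in NS-DADm, with WT 3 just above NS-DADm 1. Of all c subunit FPKM, Atp5g1 held 48.5% ± 1.4 in WT (SD, n = 3) and 46.6% ± 0.3 in NS-DADm. Ndufa4l2 to Ndufa4 was higher in NS-DADm by 0.19 on the log2 scale. Cox4i2 to Cox4i1, a pair in which Cox4i2 is the form known from lung, had a log2 difference of -0.21, and Cox6b2 to Cox6b1 one of -0.65. The major forms Cox4i1 and Cox6b1 stood at 1941 and 1762 FPKM in WT, with log2 fold changes of 0.05 and -0.01. In these 3 pairs the minor form held 1.05% or less of the pair in either group.

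Within each group the members moved together by library. Each gene's log2 CPM was compared with its own mean over the 6 samples, and the median over the 82 members was 0.08, 0.05 and -0.08 in WT samples 1 to 3 and 0.01, 0.03 and -0.07 in NS-DADm samples 1 to 3. WT 3 was the lowest of its group in 68 of 82 members, or 82.9%, where this held for 35.4% of all tested genes. NS-DADm 3 was the lowest of its group in 64, or 78.0%, against 32.9% of all tested genes. WT 3 and NS-DADm 3 were also the libraries with the highest atrial sums in their groups and the lowest cardiomyocyte sums, 50600 and 49700 FPKM. Not every gene of the cardiomyocyte sum went this way. Myl2, Tnnt2, Tnni3 and Actc1 were lowest of their group in both libraries, and Pln in WT 3 only. Ryr2 was highest of its group in both, and Myh6 was highest of WT in WT 3. NS-DADm 1 was high in atrial transcripts too, with 3810 FPKM, and was lowest of its group in 14 members only, or 17.1%. The part of atrial or fat tissue in this pattern was not tested.

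**Figure D5:**
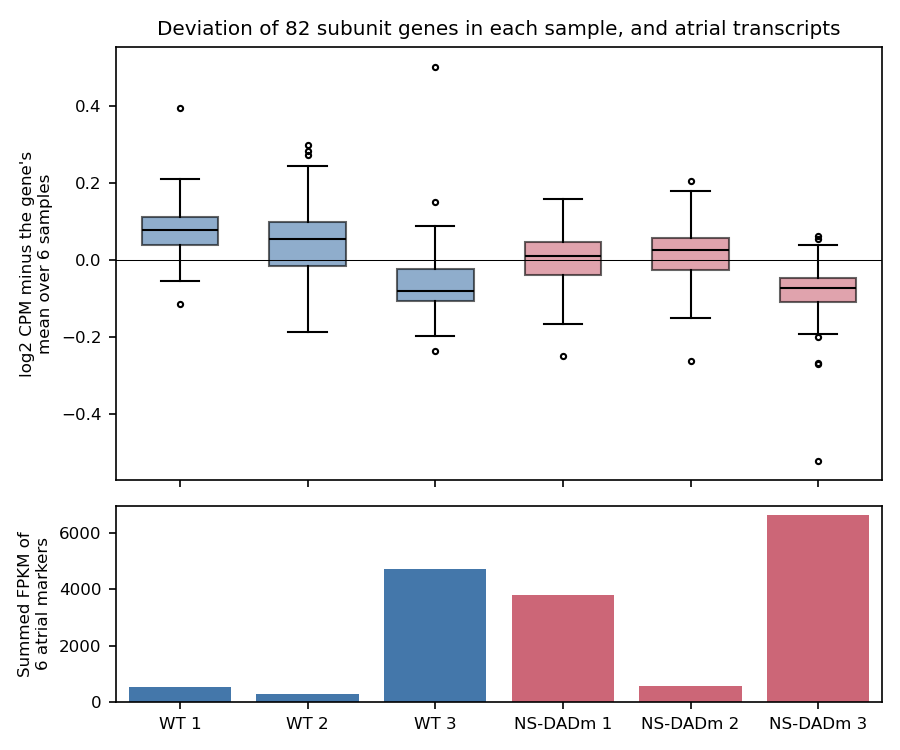
Upper panel: deviation of log2 CPM from each gene's mean over 6 samples for the 82 tested genes (box, quartiles and median; whiskers, 1.5 times the box height; points, genes beyond). Lower panel: summed FPKM of 6 atrial markers; WT 3 and NS-DADm 3 have the lowest medians, -0.08 and -0.07, and the highest bars of their groups.

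The members' median differed in sign between the atrial-low and the atrial-high libraries, but each of these comparisons has a group of 1 library. Within the 3 atrial-low libraries (2 WT and 1 NS-DADm) the median log2 difference was -0.03, with 55 of 82 members negative. Within the 3 atrial-high libraries (1 WT and 2 NS-DADm) it was 0.04, with 28 of 82 negative. The latter rests on WT 3 alone as its WT sample, the library that was lowest in most members. With an atrial score as a covariate, the members' median was 0.01, edgeR called 0 members, and Sdha had a log2 fold change of -0.24 and an adjusted p of 0.11.

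Transcript models of the members gave no call either. The transcript tables held 113 models of member genes, and 17 genes had more than 1. In edgeR's quasi-likelihood test 0 of 103 tested models were called, where 0.0972% of all 17497 tested models were. At an unadjusted p of 0.05 there were 9, or 8.74%, where the background was 11.2%. Uqcrq, which holds a minor model NM_001326614, gave that model 18.3, 20.4 and 13.3 FPKM in WT and 28.0, 27.8 and 26.5 in NS-DADm. Its log2 fold change was 0.69 with a standard error of 0.16 and an adjusted p of 0.231 in edgeR, while the major model averaged 331 FPKM in WT and, in NS-DADm, 329. The minor model NM_030087 of Ndufv3 measured 18.6, 16.8 and 17.8 FPKM against 21.2, 24.4 and 24.7, also without overlap, with a log2 fold change of 0.43 and an adjusted p of 0.18 in edgeR. The minor model NM_001302213 of Atp5j, the F6 subunit, went the other way, with 60.7, 64.9 and 60.0 FPKM in WT against 46.8, 48.5 and 51.3, a log2 fold change of -0.31 and an adjusted p of 0.18 in edgeR. These models were named after their values were seen.

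Among 16 regulators of respiratory chain genes 1 passed in edgeR, or 6.25%, where 3.2% of all tested genes did. Perm1, a muscle regulator that acts with PGC-1 and the estrogen-related receptors, measured 108, 115 and 113 FPKM in WT and 142, 148 and 127 in NS-DADm. It rose by a log2 fold change of 0.33 with a standard error of 0.08 and an adjusted p of 0.045 in edgeR. The call was lost with limma and in 5 of the 6 fits that left out 1 sample, all but the one without NS-DADm 3. Ppargc1a, which encodes the coactivator PGC-1alpha, measured 23.6, 25.3 and 31.2 FPKM against 47.0, 60.9 and 32.2. NS-DADm 1 and 2 were well above WT and NS-DADm 3 was only just above the highest WT sample. Its log2 fold change was 0.83 with a standard error of 0.20 and an adjusted p of 0.0529 in edgeR, just outside the threshold.

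The other regulators did not pass. Gabpa, a subunit of the GABP factor, measured 15.6, 15.8 and 16.1 FPKM in WT and 12.5, 13.4 and 13.8 in NS-DADm, with a log2 fold change of -0.23 and an adjusted p of 0.0926 in edgeR. Nrf1, Esrra and Tfam, which encodes the transcription factor of mitochondrial DNA, had log2 fold changes of 0.12, 0.11 and 0.03. The median over the 16 was 0.08. Of 6 muscle transcription factors that can act on isoform genes, 0 passed in edgeR, against 3.2% of all tested genes, and 4 had an unadjusted p under 0.05, against 18.1%. The abundant Mef2a and Mef2d had log2 fold changes of -0.12 and 0.13. Tead1, which binds a promoter element common in muscle genes, had the lowest adjusted p in edgeR, 0.0983, with a log2 fold change of 0.26. Of the 4 with an unadjusted p under 0.05, Tead1, Mef2d and Srf (0.21) were higher in NS-DADm and Gata4 (-0.20) was lower. In FPKM 5 of the 6 factors had groups that did not overlap, or 83.3%, against 23.4% of all tested genes.

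A further list of 14 genes outside the naming rule held chain subunits, carriers and other mitochondrial proteins. Of the 14, 0 passed in edgeR, against 3.2% of all tested genes, and 4 had an unadjusted p under 0.05, or 28.6% against 18.1%. Of these 4, Atpif1, Usmg5 and Minos1 were lower in NS-DADm and Slc25a4 was higher. Slc25a4, the heart form of the ADP/ATP carrier, measured 4707, 4527 and 4138 FPKM in WT and 5204, 5194 and 4771 in NS-DADm, with a log2 fold change of 0.21 and an adjusted p of 0.16. All 3 NS-DADm samples were above WT. Ckmt2, the mitochondrial creatine kinase of muscle, was lower in NS-DADm without overlap in FPKM, overlapped on log2 CPM, and had a log2 fold change of -0.10 with an adjusted p of 0.463. Atpif1, the inhibitor of ATP synthase, had a log2 fold change of -0.27 and an adjusted p of 0.195. Cyc1 and Cycs, which encode cytochromes c1 and c, had -0.01 and -0.16.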

How the data were processed

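RNA was measured in 6 myocardium samples, 3 WT and 3 NS-DADm, grouped by the labels. The authors deposited expected counts (estimated reads per gene or transcript) and FPKM (counts scaled by length and library size), per the file headers. HISAT is the aligner in the submitters' processing notes. Not given in the sources used here: build, annotation and estimator. Tables list values of at least 0.01 FPKM, so a gene missing from a sample was taken as 0, and 1 row without a symbol (at most 0.00032% of counts) was left out. Total counts per sample were 10183776 to 12758270.

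Expected counts were rounded and fitted over all genes with edgeR 4.0.16 (R 4.3.3), using TMM, filterByExpr, the quasi-likelihood test and Benjamini-Hochberg adjustment, with an adjusted p of 0.05 as threshold. Intervals are at the 95% level. DESeq2 1.42.0 and limma 3.58.1 on log2(FPKM + 1) and log2(FPKM + 0.1), other filters and scalings, a replicate block and leaving out each sample were alternatives. The scripts were tested on simulated data. No samples were duplicates: the chi-square per gene between samples was 3.49 to 17.91. The members, gene lists and tests were chosen with earlier results of these data known. Named genes were those of the isoform pairs, the 2 highest and the 2 lowest of each complex by WT FPKM, the 3 largest positive and the 3 largest negative log2 fold changes, the 3 smallest p, and any called gene; in the other lists, called genes or the 2 most abundant. Other genes given with values, such as Uqcr11, Cox7a2l, Ppargc1a, Gabpa, Tead1 and Atpif1, were chosen after their values were seen. The atrial covariate and split, the TMM-scaled sums and the count of Ndufa4 in complex IV were added after seeing the data.

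Of the 83 genes, 5 had counts that were not whole in some sample, and 29 share exonic bases with another gene in GENCODE M21, 26 of them on the opposite strand. Whether counting used strand was not stated, so reads of such genes may be mixed. An example is Cox6a2, which shares 70 bases with Itgad. Results for 1 member and 1 other gene are not reported here.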

Additional observations from a re-analysis of the deposited data

How the results depend on the processing

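Of 238 alternative values for 17 named genes, 221 kept their direction and side of the threshold. The direction reversed with the atrial covariate for Atp5g1 (0.01), Cox6a2 (0.00), Cox6b1 (0.04), Cox7a2 (0.00), Cox8b (0.06) and Ndufa4l2 (0.01). When samples were left out in turn, log2 fold changes ranged from -0.09 to 0.04 for Cox8b, -0.08 to 0.03 for Cox6a2, -0.06 to 0.04 for Cox6b1, -0.14 to 0.01 for Ndufa4l2 and 0.00 to 0.09 for Cox4i1. DESeq2 called 1 member (Sdha) and 1 muscle factor (Tead1).

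The labels give both groups the replicate numbers 1 to 3 but no pairing. Deviations of same-numbered samples correlated at -0.05, 0.33 and 0.398, and those of other pairs at -0.439 to 0.19, so only some of the numbers deviate together and pairing is not settled. With the replicate block edgeR called 895 genes in place of 420, among them 1 member (Sdha, adjusted p of 0.0234). It also called 1 of the further mitochondrial genes outside the naming rule (Slc25a4) and 1 assembly factor of complex IV (Cox20). Also called were 2 regulators (Perm1 and Ppargc1a) and 1 muscle factor (Tead1).

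Limma called 267 genes with the pseudocount 0.1 and 272 with 1, and 117 to 382 were called by edgeR when samples were left out. Of the regulators limma called 0 with either pseudocount, with a median of 0.03, and 2 were called without the low-count filter. Leaving out samples gave 0 to 2 regulators called, with medians of 0.01 to 0.10, and 0 to 1 of the further mitochondrial genes called. Medians for assembly factors of complex IV were -0.06 to 0.04. In the atrial-high libraries the medians were 0.04 for all members, 0.06 for complex I, -0.03 for complex II and 0.04 for complex V. The cause of these shifts was not tested. With 3 samples a group, ratio tests cannot go below 0.1, and Cox6b2 and Cox7b2 were limited by depth.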

Other observations

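Assembly factors, which build the complexes without being part of them, were described by the same fit. Tested were 13 factors of complex I, 10 of complexes II and III, 25 of complex IV and 3 of ATP synthase. None passed edgeR's quasi-likelihood test, where 3.2% of all tested genes did. At an unadjusted p under 0.05 there were 2, 2, 4 and 0, or 15.4%, 20%, 16% and 0%, where the background was 18.1%. The median log2 fold changes of these sets were -0.05, -0.05, -0.02 and -0.02. Cox20, a chaperone of the mitochondrially made subunit Cox2, had the lowest adjusted p in edgeR, 0.0815. It measured 196, 176 and 175 FPKM in WT and 154, 145 and 143 in NS-DADm, with all NS-DADm samples lower and a log2 fold change of -0.27. Lyrm7, which assists insertion of the Rieske protein into complex III, measured 13.3, 12.9 and 11.3 FPKM against 14.8, 15.0 and 14.5, with a log2 fold change of 0.26 and an adjusted p of 0.135 in edgeR. Sdhaf4, which assists Sdha, measured 40.0, 32.6 and 28.7 against 39.6, 43.0 and 40.5. Its groups overlapped in FPKM, while on log2 CPM all NS-DADm samples were above WT. The log2 fold change was 0.31 and the adjusted p in edgeR 0.184. The abundant factors Cox17, Uqcc2, Ecsit and Tmem70 had overlapping groups and log2 fold changes of -0.01, -0.17, -0.02 and -0.02. Lyrm7 and Sdhaf4 were named after their values were seen.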
